A study of Mus musculus with 2 samples.

Results

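Autophagy is the process by which a cell encloses part of its own cytoplasm in a double membrane and delivers it to the lysosome for breakdown, and mitophagy is its selective form for mitochondria. The ULK1 kinase complex starts the process, a class III PI3-kinase complex marks the growing membrane with the lipid PI3P, lipid transfer proteins extend the membrane, and ubiquitin-like conjugation enzymes attach the ATG8 proteins (LC3 and GABARAP) that bind the cargo receptors. Brown adipocytes are rich in mitochondria, and thyroid hormone is known to stimulate both thermogenesis and mitochondrial turnover in this tissue. Chromatin occupancy by the thyroid hormone receptor TRα1 was described around 38 listed autophagy and mitophagy genes, out of 21938 protein-coding genes. A TR binding site (TRBS) belonged to a gene when the summit of its peak, the position with the most sequenced fragments, lay at most 30 kb from the transcription start site (TSS). The TSS was the outermost 5′ end of the gene in the GENCODE annotation of GRCm38. The genes were listed by their role, but with earlier results of these binding data known, so the list was not chosen blind to them.

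The tissue was brown fat of male C57BL/6J mice aged 8 to 12 weeks. All animals had the genotype TRa1 GS-tagged, in which brown adipocytes alone express the tagged receptor, and the promoter that restricts it is not given in the labels. All had eaten food with propylthiouracil, an inhibitor of hormone synthesis, for 2 weeks and had then received thyroid hormone over 24 h. There was 1 ChIP library (chromatin precipitated for TRα) and 1 Input library (the same chromatin without precipitation), combined by the authors into a single list of 5107 peaks, so there was no replicate and no test between conditions, and hypothyroid tissue without hormone was not analysed here. The brown adipocyte genes Ucp1, Cidea and Ppargc1a each had at least 1 TRBS within 30 kb. So did Pparg, Fabp4 and Adipoq, genes of adipocytes in general, and 16.7% of all protein-coding genes. Genes of other cell types were not set beside them, so these counts do not identify the tissue. Binding does not measure expression.

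The number of ChIP fragments at each summit was recovered from the deposited fold and p-value. The median TRBS of the whole list had 17 fragments, with the middle 50% between 11 and 27, and the smallest had 5. Intervals given after a number of fragments are exact 95% Poisson intervals, which cover counting error only. They may be too narrow even for that, because fragments without molecular identifiers need not be separate molecules. A gene without a listed TRBS may still be bound below what was detectable at this depth.

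The receptor elements found inside the TRBS of the listed genes are printed to show what sequence lay under the binding. TR binds, together with its partner RXR, to the DR4 element, in which 2 AGGTCA half-sites follow each other 4 bp apart. Both strands of each peak were scanned for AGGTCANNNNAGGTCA, allowing up to 2 mismatches among the 12 bases of the half-sites. An element was present in 6 of the 16 TRBS of the autophagy genes, and 10 of the 16, among them those of Sqstm1 and Map1lc3b, held none. They are printed in the orientation of the element, with the 16 bp of the element in capitals and 7 reference bases (GRCm38) on each side, so that the half-site known to be occupied by TR is the second of the pair.
Trp53inp2, chr2:155382238-155382253, minus strand: gcccaccGGGTCACCAGAGGACAagcaccc
Rb1cc1, chr1:6214506-6214521, plus strand: ccttccaGGGTCAGGGAAGGACAgacaagt
Ulk1, chr5:110806892-110806907, minus strand: gctgtggTGGTTATTTAAGGTCAtgtggtg
Trp53inp1, chr4:11128544-11128559, plus strand: ggtcaatAGGTCATGCTAGTTCAgcttagg
Gabarapl2, chr8:111923749-111923764, plus strand: tctaaggAGGTCGGATGAGTTCAaacccgg
Uvrag, chr7:99161772-99161787, plus strand: ccaggccAGGCCAGGCCAGGTTAagtataa

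None of these was a perfect repeat. The Trp53inp1 element had 1 mismatch, in the second half-site, and the others had 2. Ulk1 kept an intact second half-site and had both mismatches in the first. In Trp53inp2, Rb1cc1, Gabarapl2 and Uvrag each half-site had 1 mismatch. Among the 1633 TRBS of the whole list with an element, 44.4% had mismatches in both half-sites, 25.2% in the first only, 27.7% in the second only, and 2.69% had none. The Uvrag match lay in a short tandem run, where 4 overlapping matches were found in the same peak. The element of Trp53inp2 was 14 bp from the summit, that of Gabarapl2 6 bp and that of Ulk1 26 bp, while that of Trp53inp1 was 96 bp away. The share of 37.5% (6 of 16) was close to the 32.0% of all 5107 TRBS, while flanking windows of the same widths, 2 kb beyond each edge, held an element in 5.44% of 9870 cases. A DR1 element (AGGTCANAGGTCA, the repeat with a spacer of 1 bp that PPAR and RXR are known to bind, at most 2 mismatches) was present at Wipi2 only, in 6.25% of the 16 TRBS, against 14.9% of all TRBS and 7.93% of flanks. The E-box CACGTG, the core of the element known to be bound by TFEB and MITF, was present at Gabarapl2 only, against 8.99% of all TRBS and 6.75% of flanks.

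A TRBS was found within 30 kb of 15 of the 38 autophagy genes, or 39.5%. The same rule gave a TRBS to 16.7% of all protein-coding genes. When olfactory and vomeronasal receptor genes and Gm predicted genes were left out of the comparison, which was decided with the values in view, the background was 18.4%. The shares were also set out by the number of neighbouring genes. Among genes with no other protein-coding TSS within 30 kb, 6 of 16 autophagy genes and 12.9% of all genes had a TRBS. With 1 such neighbour the values were 4 of 10 and 17.2%, and with 2 or more they were 5 of 12 and 21.1%. The autophagy genes were longer, with a median of 29756 bp against 17425 bp, and the part of gene length in the share was not tested. The score of a TRBS is 10 times its −log10 q-value. When those scoring below 60 were dropped, 13 of 38 genes still had one (34.2%), against 14.1% of all genes.

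Only a part of these TRBS lay closest to the autophagy gene itself. When each TRBS was assigned to the gene with the nearest protein-coding TSS, 9 of 38 autophagy genes (23.7%) kept one, against 9.87% of all genes. Within 10 kb of the TSS, 7 of 38 genes (18.4%) had a TRBS, against 8.09%. Within 100 kb the values were 23 of 38 (60.5%) and 38.3%. The plot by distance limit shows that the share among autophagy genes climbed from 28.9% at 25 kb to 39.5% at 30 kb, since 4 genes (Atg9a, Map1lc3b, Trp53inp1 and Becn1) had their TRBS between these limits.

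**Figure D1:**
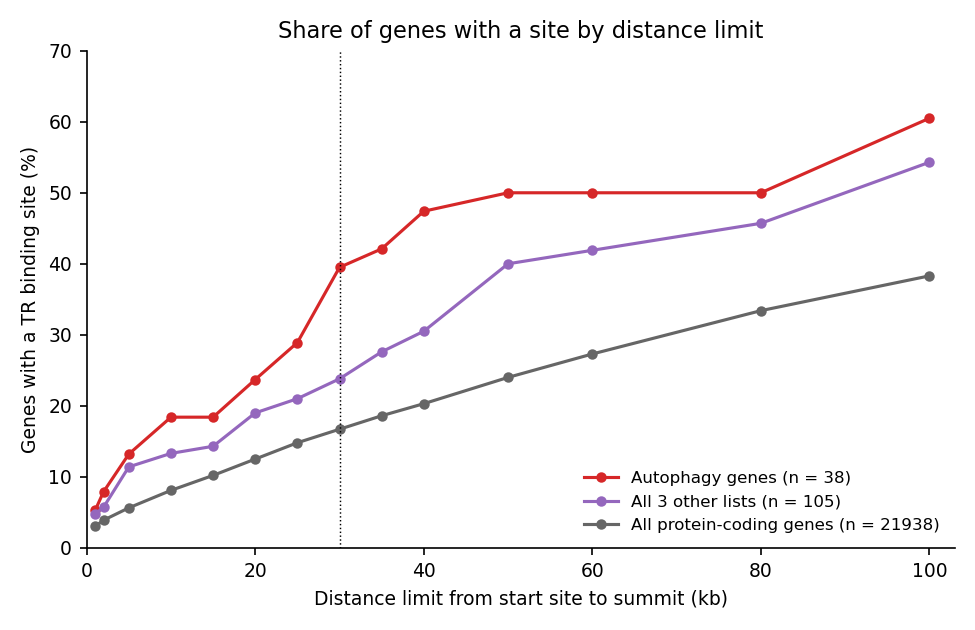
Percentage of genes with a TRBS summit within a distance limit of the TSS (x axis, kb), for the 38 autophagy genes, the 105 genes of 3 related lists and all 21938 protein-coding genes; each point is a count of genes and carries no error bar. At the limit of 30 kb (dotted line) the shares are 39.5%, 23.8% and 16.7%.

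The counts were also set out by role, beside the 16.7% of all protein-coding genes. A TRBS was present at 3 of 5 genes of the ULK1 initiation complex, 3 of 4 of the class III PI3-kinase complex, 3 of 6 of the lipid transfer and PI3P-binding proteins, 2 of 5 of the ATG8 family, 2 of 4 of the cargo receptors and mitophagy genes, and 2 of 4 regulators. Of the 10 genes of the conjugation machinery, 0 had one by this rule, and 1 (Atg7, with 4 TRBS) had one when any annotated transcript start was used, a rule by which 19.6% of all protein-coding genes had one. These groups hold 4 to 10 genes each, too few to read a difference between roles, and none was tested.

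**Figure D2:**
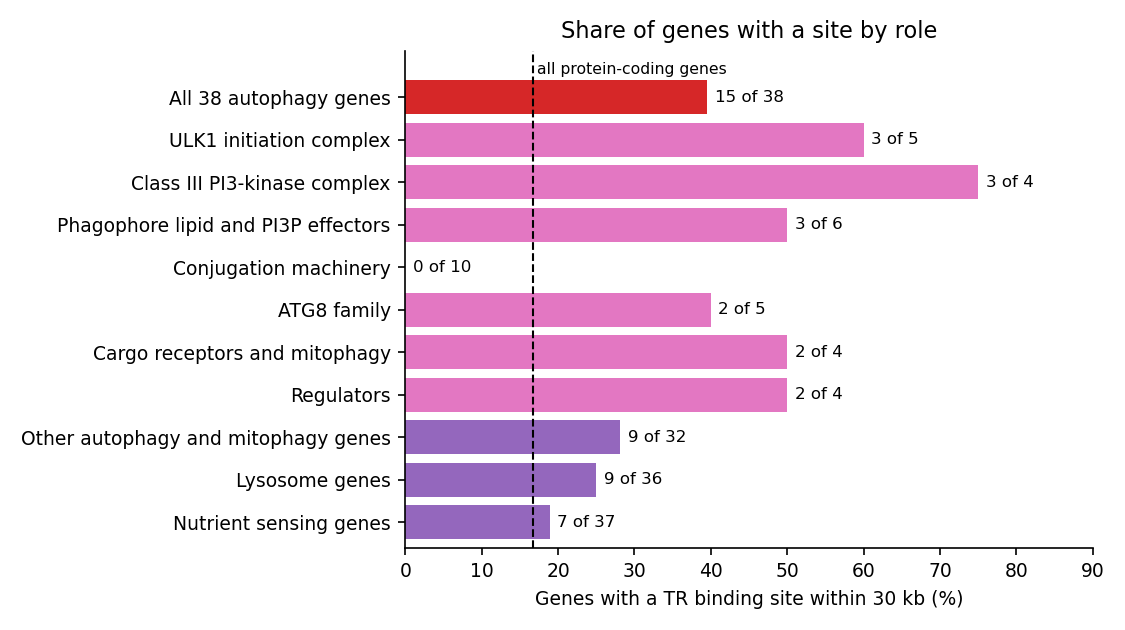
Percentage of genes that had a TRBS at most 30 kb from the start, for all 38 autophagy genes (red), for the 7 roles among them (pink) and for 3 related lists (purple), with the counts beside the bars and the share of all protein-coding genes, 16.7%, as a dashed line. The conjugation machinery stands at 0 of 10 and the class III PI3-kinase complex at 3 of 4.

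The 16 TRBS were of ordinary size. Their median was 16.5 fragments (range 8 to 68), against 17 in the whole list, and their median fold over Input was 9.30 against 9.83. There were 8 above the median of the whole list and 5 above its upper quartile of 27. The input background at the 16 summits ranged from 0.430 to 1.76 fragments on the scale of the ChIP library, with a median of 0.596 against 0.672 for all TRBS. Atg9b was the only one of the 15 genes with more than 1 TRBS. In the whole annotation, several TRBS within 30 kb were found for 27.3% of genes that had any.

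**Figure D3:**
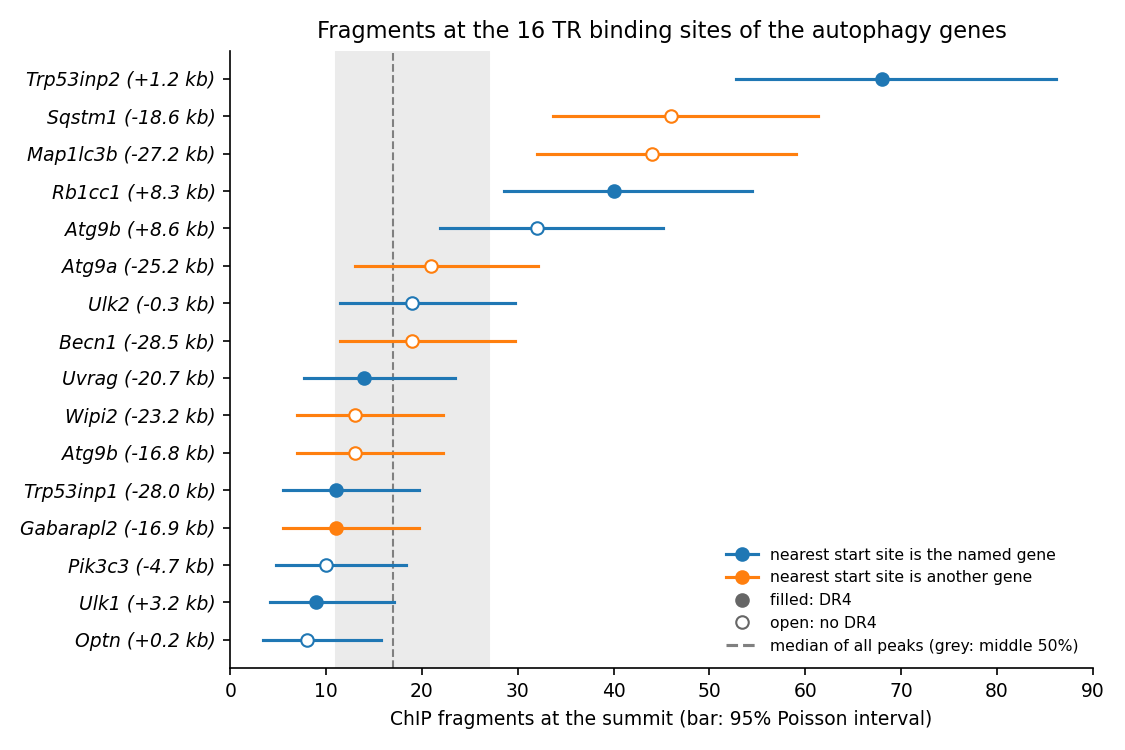
ChIP fragments at the summit of each of the 16 TRBS (x axis) with 95% Poisson intervals, named by the autophagy gene and the distance from its TSS; filled points hold a DR4, blue points have the named gene as nearest TSS, orange points another gene, and the grey band is the middle 50% of all 5107 peaks. Trp53inp2 leads with 68 fragments, and 11 of the 16 points lie at 21 fragments or fewer.

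The strongest of the 16 was at Trp53inp2, which encodes a protein known to bind ATG8 proteins at the autophagosome and, under the name DOR, as a nuclear coactivator of thyroid hormone receptors. The gene lies at chr2:155381059-155389850 on the plus strand. Its TRBS (chr2:155381915-155382585) had 68 fragments (52.8 to 86.2) and a fold of 44.1. The summit was 1172 bp downstream of the outermost TSS. It was nearer to other starts of the gene, since the principal transcript begins 417 bp and the closest annotated transcript 29 bp upstream of the summit. The region was annotated as an intron. Trp53inp2 ranked 1 of 15 autophagy genes by fragments, by fold and by score. By the strongest TRBS of each gene, 191 of the 3659 genes with any TRBS had at least as many fragments (5.22%), and 97 had at least as high a fold (2.65%). The next genes were Sqstm1 with 46 fragments (33.7 to 61.4), Map1lc3b with 44 (32.0 to 59.1) and Rb1cc1 with 40 (28.6 to 54.5), whose intervals overlap that of Trp53inp2. The remaining intervals, from Atg9b with 32 fragments (21.9 to 45.2) downwards, do not overlap it.

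Among the initiation genes, Rb1cc1, which encodes the scaffold FIP200 of the ULK1 complex, had the strongest TRBS (chr1:6214176-6214635), with 40 fragments and a fold of 18.8. It was 8279 bp downstream of the outermost TSS but 169 bp upstream of the start of the principal transcript, and the peak ended just before that start. The 201 reference bases around its summit (chr1:6214376-6214576, plus strand, element in capitals) show the element 38 bp from the summit.
Rb1cc1 summit: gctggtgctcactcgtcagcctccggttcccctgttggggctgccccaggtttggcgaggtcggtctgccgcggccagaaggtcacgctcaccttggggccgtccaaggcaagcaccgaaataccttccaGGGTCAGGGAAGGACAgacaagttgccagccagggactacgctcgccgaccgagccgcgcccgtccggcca

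Ulk2, a kinase of the same complex, had a TRBS at its promoter (chr11:61855114-61855432), 269 bp upstream of the TSS, with 19 fragments (11.4 to 29.7) and a fold of 7.24. It was the TRBS with the highest input background of the 16 (1.76) and held no DR4. Ulk1, the kinase that gives the complex its name, had a weak intronic TRBS (chr5:110806685-110807058) 3223 bp downstream of its TSS, with 9 fragments (4.12 to 17.1), a fold of 6.23 and a score of 56. Its 201-base window (chr5:110806774-110806974, plus strand) shows the element 26 bp from the summit, on the minus strand and therefore as its reverse complement.
Ulk1 summit: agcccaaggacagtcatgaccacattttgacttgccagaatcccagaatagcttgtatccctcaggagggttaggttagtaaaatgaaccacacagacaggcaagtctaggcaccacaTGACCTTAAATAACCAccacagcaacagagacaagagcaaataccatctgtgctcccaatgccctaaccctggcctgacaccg

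The other subunits of this complex, Atg13 and Atg101, had no TRBS within the limit. The nearest summit to Atg101 was just outside it, 30251 bp upstream, at the promoter of Nr4a1, with 11 fragments. That of Atg13 was 39592 bp upstream, in an intron of Ambra1 (which itself encodes a regulator of the initiation complex), with 35 fragments (24.4 to 48.7). On the inner side of the limit, the most distant TRBS that counted were those of Becn1 at 28462 bp, Trp53inp1 at 27976 bp and Map1lc3b at 27235 bp.

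In the class III PI3-kinase complex, all 3 TRBS were upstream and of moderate or low strength. The TRBS assigned to Becn1, the regulatory subunit Beclin 1, had 19 fragments and a fold of 12.4, but it lay 143 bp from the TSS of Aoc3, an amine oxidase of adipocytes. Becn1 had 7 TRBS within 100 kb, the strongest of them 98208 bp upstream with 147 fragments (124 to 173) and nearest to Aarsd1. The TRBS of Uvrag, a partner of Beclin 1, had 14 fragments (7.65 to 23.5) 20680 bp upstream, inside an intron of Dgat2, an enzyme of triglyceride synthesis. Pik3c3, the catalytic subunit, had 10 fragments (4.80 to 18.4) 4681 bp upstream. No TRBS was within 100 kb of Atg14.

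Among the lipid transfer and PI3P-binding genes, Atg9b (a lipid scramblase of the growing membrane) had 2 TRBS. The stronger one (chr5:24383343-24383759) had 32 fragments and a fold of 21.9, in a coding exon of the adjacent gene Nos3. The other, 16847 bp upstream in an intron of Abcb8, had 13 fragments (6.92 to 22.2). The TRBS of the paralogue Atg9a had 21 fragments (13.0 to 32.1) 25230 bp upstream, in a coding exon of Tuba4a and 2439 bp from the Tuba4a TSS. That of Wipi2, a PI3P-binding protein, had 13 fragments 23233 bp upstream, in an intron of Mmd2. No TRBS lay within 100 kb of Atg2a, Atg2b or Wipi1.

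In the ATG8 family, Map1lc3b, which encodes LC3B, had 44 fragments and a fold of 20.3 in a TRBS 27235 bp upstream (chr8:121562928-121563419), in an intron of Fbxo31. Gabarapl2 had 11 fragments (5.49 to 19.7) 16941 bp upstream, in an intron of Tmem231. That peak contained 54.75% repeat sequence, the highest share of the 16. The nearest summit to Gabarap was 42618 bp upstream at the promoter of Slc2a4, the insulin-responsive glucose transporter, with 45 fragments (32.8 to 60.2). No TRBS was within 100 kb of Gabarapl1.

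Map1lc3a, which encodes LC3A, and Trp53inp2 are neighbours on chromosome 2, with 104762 bp between their TSS and Pigu as the protein-coding gene between them. The nearest summit to Map1lc3a was 35286 bp upstream, in an intron of Dynlrb1, with 38 fragments (26.9 to 52.2), a fold of 20.4 and a DR4 with 2 mismatches in its first half-site and none in its second. Between both genes a weak TRBS in Pigu had 9 fragments. The plot of this locus shows that no other TRBS was listed from Dynlrb1 to Ncoa6, itself a nuclear receptor coactivator gene.
Map1lc3a, chr2:155241021-155241036, minus strand: ccaggcaGAGTCAAGGCAGGTCAggggtac

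**Figure D4:**
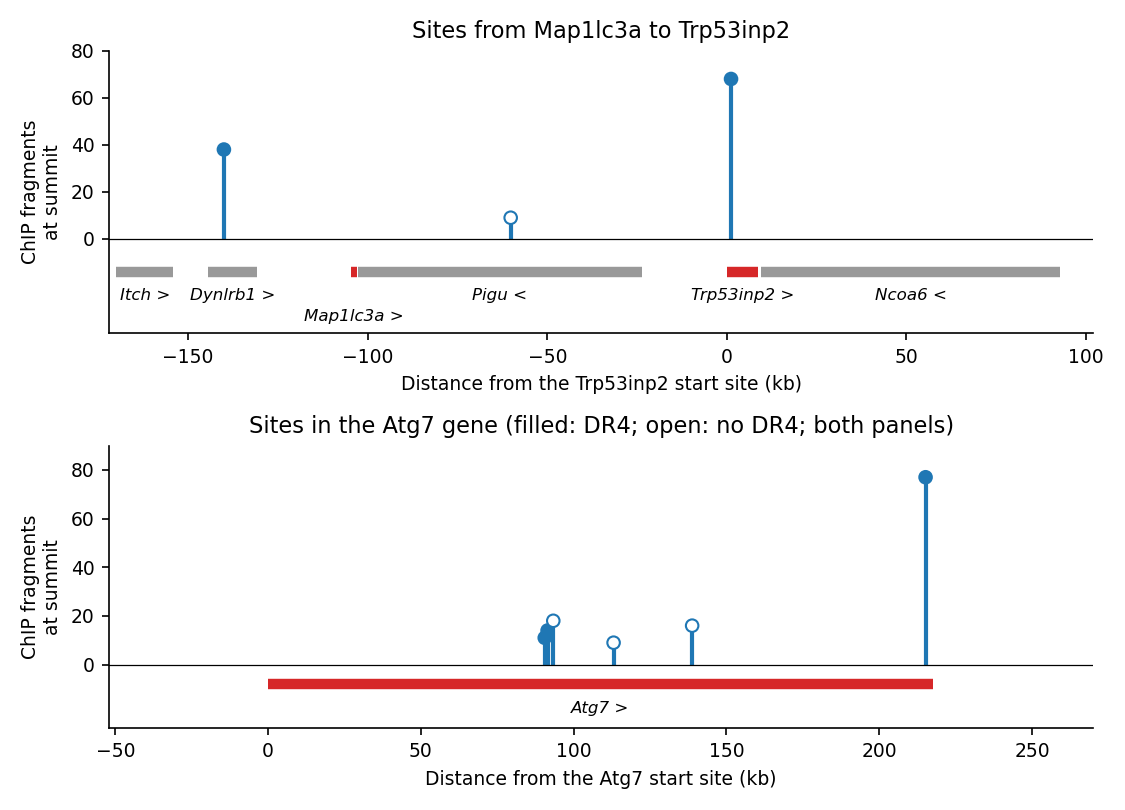
ChIP fragments at each TRBS summit (y axis) against the distance from the TSS in kb, for the locus from Map1lc3a to Trp53inp2 (top) and for the Atg7 gene (bottom); bars under the axis are genes, arrows give their strand, and filled points hold a DR4. The highest point is 68 fragments in the top panel, in Trp53inp2, and 77 fragments in the bottom panel, near the 3′ end of Atg7.

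Of the cargo receptors and mitophagy genes, Sqstm1, which encodes the receptor p62, had the second strongest TRBS of the 16. It lay 18556 bp upstream (chr11:50229000-50229737) in an intron of Mgat4b, with 46 fragments and a fold of 29.9, and its nearest TSS was that of Ltc4s at 9233 bp. Optn, a receptor of damaged mitochondria, had the weakest, with 8 fragments (3.45 to 15.8), a fold of 4.70 and a score of 31, at a distance of 247 bp from its TSS. The TRBS nearest to Bnip3, a mitophagy receptor, and to Pink1, the kinase that marks damaged mitochondria, were 101789 and 108750 bp upstream. Among the regulators, Trp53inp1, the paralogue of Trp53inp2, had 11 fragments (5.49 to 19.7) and a fold of 8.39 in an intergenic TRBS 27976 bp upstream. The lysosomal regulators Tfeb and Mitf had no TRBS within 100 kb.

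In the conjugation machinery, Atg7, which encodes the activating enzyme of both conjugation systems, carried TRBS beyond the distance limit. The gene spans 217518 bp, and none of its TRBS lay within 30 kb of the outermost TSS, yet 6 were inside the gene, all in introns. These were sought after the values had been seen. The neighbouring TRBS at 90541, 91469 and 93337 bp downstream had 11, 14 and 18 fragments, respectively. Those at 113073 and 138781 bp had 9 and 16. The last, at 215172 bp (chr6:114857937-114858649), had 77 fragments (60.8 to 96.2) and a fold of 51.9, more than the TRBS of Trp53inp2, although their intervals overlap. Other annotated Atg7 transcripts start closer to these TRBS. The summits at 90541, 91469 and 93337 bp were 10538, 11466 and 13334 bp downstream of such a start, and the strongest summit was 2118 bp downstream of another, so that 4 of the 6 fell within 30 kb of some Atg7 start. For the strongest, the nearest gene by outermost starts was Vgll4. At least 6 TRBS in the gene body were found for 24 of 21938 protein-coding genes (0.109%), and for 10 of the 891 genes at least as long as Atg7 (1.12%). The elements of these TRBS included 1 with a single mismatch, in the first half-site, and 1 at 2 bp from the strongest summit with an intact second half-site.
Atg7 at 90541 bp, chr6:114733653-114733668, plus strand: aggacaaGGGTCATCAGAGGTCAcctgcca
Atg7 at 91469 bp, chr6:114734545-114734560, minus strand: ggctgttAGGACACATGAGGGCAagcttcc
Atg7 at 215172 bp, chr6:114858264-114858279, minus strand: tacgttgAGGTGGCCTGAGGTCAacacagc

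When TRBS in the gene body were counted as well, 16 of 38 autophagy genes had one (42.1%), against 19.5% of all genes. Atg7 was the gene gained over the limit of 30 kb. Counted in the gene body alone, 5 of 38 autophagy genes had one (13.2%), against 9.27% of all genes. The other genes of the conjugation machinery had none in the gene body. The nearest summits were at 80103 bp for Atg4d, 82785 bp for Atg16l2 and 92856 bp for Atg16l1, and farther than 100 kb for Atg3, Atg4b, Atg4c, Atg5, Atg10 and Atg12.

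**Figure D5:**
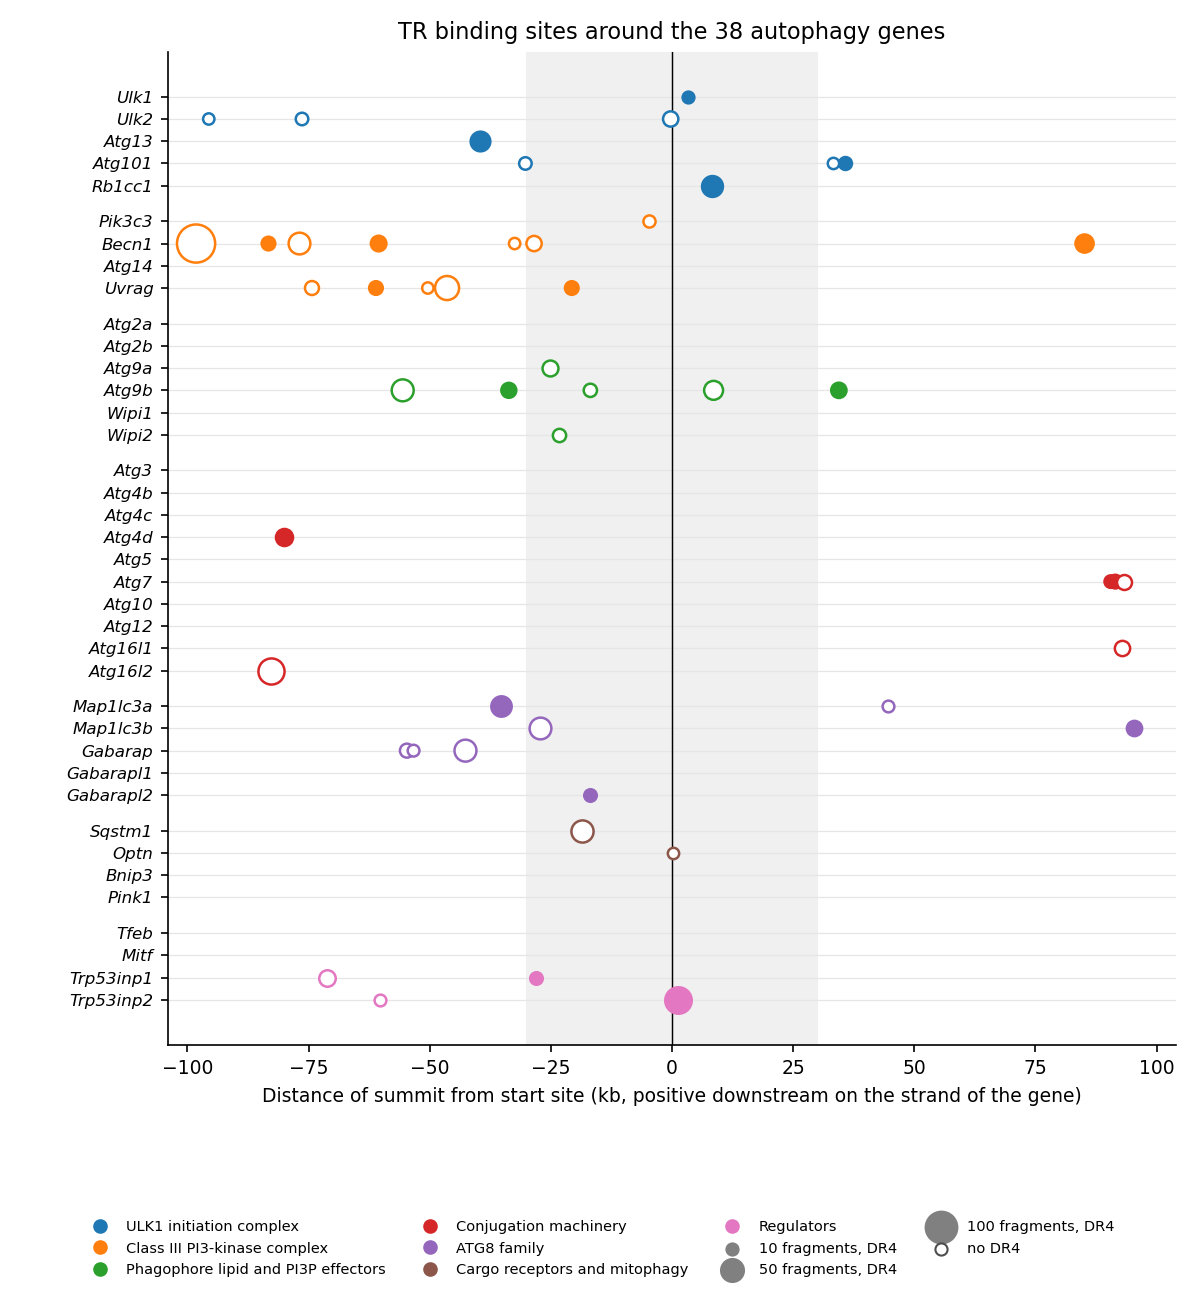
Position of every TRBS within 100 kb of the TSS of each of the 38 genes (x axis, kb, positive downstream), with the area of a point rising with its fragments, filled where it holds a DR4 and coloured by role; the grey band is the limit of 30 kb. Rows without points, among them Atg3, Atg5, Atg14 and Tfeb, have no listed TRBS in this window, and the 10 conjugation genes have none in the grey band.

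The position of the 16 TRBS was set beside all pairs of a TRBS and a protein-coding gene. Of the 16, 11 (68.8%) were upstream of the autophagy TSS, against 47.0% of all 5410 pairs within 30 kb. Measured from the nearest TSS of any protein-coding gene, the direction was the opposite, with 11 of the 16 downstream (68.8%), against 61.1% of all TRBS. Another gene contained 9 of them (56.2%), against 33.0%, and 4 (25.0%) were inside the autophagy gene itself, against 31.4%. The autophagy gene had the nearest TSS for 9 (56.2%), against 53.8%. The 9 TRBS closest to the autophagy gene had a median of 14 fragments, and 5 of them held a DR4. The 7 closer to another gene had a median of 19, and 1 of them held a DR4. Among all 5410 pairs the share with a DR4 was 29.0%. The pairs of all genes were not split by which gene was nearest, so neither the DR4 counts nor the medians of this split have a matching background. Introns of any gene held 10 of the 16 summits (62.5%, against 49.6% of the 2913 TRBS near genes), and 2 were intergenic (12.5%, against 29.5%). Promoters were called only around the outermost TSS. The summits of Rb1cc1, Optn and Trp53inp2 therefore counted as intronic, although another start of the gene was 169, 134 and 29 bp away, respectively. These shares rest on 16 TRBS and were not tested.

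The related lists were described in the same way. A TRBS within 30 kb was present at 9 of 32 other autophagy and mitophagy genes (28.1%), 9 of 36 lysosome genes (25.0%) and 7 of 37 nutrient sensing genes (18.9%), or 25 of 105 in all (23.8%), against the same 16.7%. In the first list the leading genes were Ambra1 with 35 fragments, the TRBS shared with the Atg13 neighbourhood, Tecpr1, an autophagosome-lysosome tether, with 33, and Tmem41b, a lipid scramblase, with 25. Of the lysosome genes, the cholesterol carrier Npc2 had 32 fragments, the proton pump subunit Atp6v0e 24 and the membrane protein Scarb2 21. Of the nutrient sensing genes, the mTORC1 inhibitor Ddit4 had 35, the AMPK catalytic subunit Prkaa1 33 and the kinase Mtor 24. None of the 40 genes with a TRBS in the 4 lists exceeded Trp53inp2 by its strongest TRBS within 30 kb.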

How the data were processed

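ChIP-seq of TRα1 was measured in 1 ChIP and 1 Input library. Per the labels and the submitters' processing notes, the authors aligned paired-end reads to mm10 (GRCm38) with Bowtie2 2.3.2.2 and called peaks with MACS2 2.1.1.20160309.6. The deposited columns hold positions, a score (10 times the −log10 q-value, rounded down), the fold (ratio of ChIP pileup to local Input background after a pseudocount of 1), the −log10 p-value and the summit offset, all made by the authors; the separate −log10 q-value column was not used. The study removed scores under 60, whereas the deposited list still contains such peaks, and all 5107 were kept. Fragments and background at each summit were computed from the fold and the Poisson p-value; 5085 peaks (99.6%) gave a whole number at a tolerance of 0.0005 on the −log10 p scale, and read totals were not used. Genes came from GENCODE M21 without mitochondrial genes, with regions from its basic set (promoters reach from 1000 bp before the TSS to 100 bp past it), and sequence from GRCm38.p6. The scripts were tested on simulated data (Python 3.11.15, numpy 2.4.6, pandas 2.3.3). The members and lists were chosen with earlier results of these data known. Each gene of the list was accounted for; those with a TRBS within 30 kb were described with each site, those without by their nearest summit when it was within 100 kb, and of each related list the 3 genes with the most fragments were named. DR1, E-box and gene-body counts were added after values were seen. A listed symbol (Gabarapl3) had no match. DNA sequence of chromosome 18 is not printed. No test was run, because there was no replicate; shares are set beside all protein-coding genes or all peaks. The annotation at 1 site of a related list is not reported here.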

Additional observations from a re-analysis of the deposited data

How the results depend on the processing

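Of 45 values recomputed under alternatives, 30 stayed within 1.5 times the reported count or median or at the same rank, and 15 moved beyond that. With a limit of 10 kb, 7 of 38 autophagy genes had a TRBS (18.4%, 7 TRBS), against 8.09% of all genes. Of these, 0 had more than 1 (16% of all genes with a TRBS did). In the related lists, 14 of 105 genes had one (13.3%). With a limit of 100 kb, 23 of 38 autophagy genes had one (60.5%, 48 TRBS), against 38.3% of all genes. More than 1 was found for 11 of them (45.9% of all genes with a TRBS had several by this limit). In the related lists the count was 57 of 105 (54.3%). With TRBS assigned only to the nearest TSS, 9 of 38 autophagy genes had one (23.7%, 9 TRBS), against 9.87% of all genes. Of these 9 genes, 0 had more than 1 (23% of all genes with a TRBS did). Counting any transcript start, or the gene body as well (added after the data were seen), gave 2 of 16 genes with more than 1 TRBS in place of 1 of 15, against 31.2% and 31.3% of all genes with a TRBS. The DR4 was found in 1 of the 16 TRBS with at most 1 mismatch (6.25%, against 7.23% of all TRBS) and in 13 with at most 3 (81.2%, against 72.5%). Among scores of at least 60, 13 of 38 autophagy genes had a TRBS (34.2%, 14 TRBS), against 14.1% of all genes. Each wider or narrower limit changes the number of TRBS in reach by its own construction. Trp53inp2 kept rank 1 by fragments, fold and score and with scores of at least 60. This was ranked only among TRBS within 30 kb of the outermost TSS. Beyond that limit, Atg7 (77 fragments, gene body) and Becn1 (147 fragments, within 100 kb) had stronger ones. The rank was not recomputed with any transcript start. By that rule the strongest Atg7 TRBS counts, 2118 bp from an Atg7 start, and exceeds that of Trp53inp2 (68 fragments). No paired analysis was possible because the single peak list came from 1 ChIP and 1 Input library and no test was run. The depth of the single ChIP library limits which weak sites were listed.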
